A study of Ambystoma mexicanum with 6 samples.

Results

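The nuclear genes of the mitochondrial respiratory chain and ATP synthase were followed in AL1, a cell line with fibroblast character from the axolotl (Ambystoma mexicanum), with and without chemical induction of senescence. Members were the gene models outside the mitochondrial genome whose symbol names a subunit of complexes I to IV or of ATP synthase, a complex I assembly factor of the NDUFAF series, or 1 of a short set of regulators of these genes. The rule matched 101 rows of the 99126 gene models in the count table. They carried 77 symbols, and where a symbol had several models, as 17 did, the model with the highest mean count stood for it. By complex, the members comprised 32 genes of complex I, 8 NDUFAF assembly factors, 3 genes each of complex II and complex III, 8 of complex IV, 16 of ATP synthase and 7 regulators. NDUFA4 was counted with complex IV, the complex to which the mammalian protein is bound, in spite of its symbol.

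The respiratory chain sits in the inner mitochondrial membrane. Complex I takes electrons from NADH and complex II takes them from succinate, and both pass them to ubiquinone. Complex III moves them on to cytochrome c and complex IV to oxygen. Complexes I, III and IV pump protons, and ATP synthase uses the returning protons to make ATP. A few subunits are encoded in the mitochondrial genome, while all others are encoded in the nucleus, made in the cytosol and imported. In mammals, coactivators of the PGC-1 family with the factors NRF1 and ESRRA raise the transcription of the nuclear subunit genes, and TFAM, TFB1M and TFB2M act on the mitochondrial DNA or its ribosome.

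All samples were wild-type AL1 cells, listed as fibroblasts. The 3 treated samples received 10 µM etoposide, which traps topoisomerase II on DNA, together with 1 µM nutlin-3a, an inhibitor of MDM2, for 24 h, and then 1 µM nutlin-3a without etoposide for 11 days. The 3 DMSO samples received equal volumes of solvent and were kept dividing by passaging during the 12 days of induction, and all cells were collected on day 14. The groups therefore differed in the drugs and in growth and passage, which cannot be told apart here. Whether the replicate libraries stem from separate cultures is not stated, and the spread behind each p-value may therefore be technical. In bulk RNA of a culture, a change in the level per cell and a change in the share of cells carrying a transcript cannot be told apart.

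Library totals lay between 28604727 and 46686876 counts, and a limit of 3 counts in a library corresponded to 0.0671 to 0.116 counts per 1000000 (CPM, scaled as described below). Of the 15 fibroblast markers listed, 14 were found and 9 were tested. Their summed level was 7245 to 7498 CPM in the DMSO libraries and 7698 to 9419 CPM in the treated libraries, and most of it came from VIM, the intermediate filament vimentin. FBN1 was at 0 in all libraries, PRRX1, THY1, DCN and COL5A1 were near 0, and the matrix genes FN1, COL1A2 and COL1A1 fell by 1.02, 0.81 and 0.62 on the log2 scale (edgeR, adjusted p = 0.000117, 0.000797 and 0.00749). These 3 of 9 tested markers (33.3%, beside 26.8% of all models) were the only ones with an edgeR adjusted p below 0.05. The matrix genes COL6A1 and COL3A1 stood at 0.60 and 0.18 (edgeR, adjusted p = 0.121 and 0.311). Of the 9, 5 had a positive log2 fold change, and the median was 0.04. Summed markers of blood and immune cells were 1.64 to 2.38 CPM in DMSO and 5.74 to 8.21 CPM in treated libraries, with 4 of the 8 found at 0, PTPRC and SPI1 among them. The corresponding ranges were 5.71 to 6.60 and 6.05 to 8.35 CPM for skeletal muscle, 0.571 to 0.705 and 1.40 to 2.26 CPM for endothelium, 7.23 to 10.6 and 8.61 to 12.1 CPM for nerve, and 0.805 to 1.33 and 0.659 to 0.873 CPM for cartilage. Rises at an edgeR adjusted p below 0.05 were seen in 2 of 2 tested blood and immune markers, at 1.74 and 4.51 on the log2 scale. They were seen in 1 of 2 endothelial (2.87), 2 of 5 nerve, 1 of 3 muscle and 0 of 1 cartilage markers, beside 25.5% of all models. Of the nerve markers, 1 fell at that threshold. Epidermal markers summed to 1295 to 1418 CPM in DMSO and 937 to 1150 CPM in treated libraries, nearly all of it KRT18, with EPCAM at 0. Of the 3 tested, KRT18 fell by 0.40 on the log2 scale (edgeR, adjusted p = 0.0237), and 2 rose at an edgeR adjusted p below 0.05. KRT5 was 1 of these, at 1.87 (edgeR, adjusted p = 0.000141), with a mean of 0.901 CPM in DMSO and 3.34 CPM in treated libraries. The part of these markers in the respiratory gene results was not tested.

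Libraries were scaled with TMM factors (trimmed mean of M-values), and all 17424 gene models with enough reads were tested together by edgeR's quasi-likelihood test. A gene was called when its Benjamini-Hochberg adjusted p was below 0.05. Of all models tested, 25.5% were called higher and 26.8% lower in treated cells, with a median log2 fold change of -0.03. The choice of scaling bears on every direction below. With library totals alone the median over all models became -0.40, a shift of -0.37, and 2314 models (13.3%) were called higher and 7029 (40.3%) lower, in place of 4443 and 4665.

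Most subunit genes of the respiratory chain and ATP synthase were higher in treated cells, while 4 of the 6 tested regulators were lower. Of the 77 members, 74 had enough reads to be tested, and of these 46 were called higher and 8 lower. The background for these counts is the 25.5% and 26.8% of all models. The median log2 fold change over the tested members was 0.49, and 12 members were called and at least 2-fold higher, against 11.7% of all models. Scaled by library totals alone, the members split into 26 higher and 15 lower, beside 13.3% and 40.3% of all models. Among the 60 tested subunits, assembly factors and regulators left aside, 44 were called higher and 0 lower, 57 had a positive log2 fold change, and the median was 0.63. All 3 treated libraries lay above all 3 DMSO libraries in 46 of the 60 subunits and below them in 1, NDUFS8, against 28.8% and 31.4% of all models. Under library totals alone, 25 subunits were called higher and 5 lower.

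**Figure D1:**
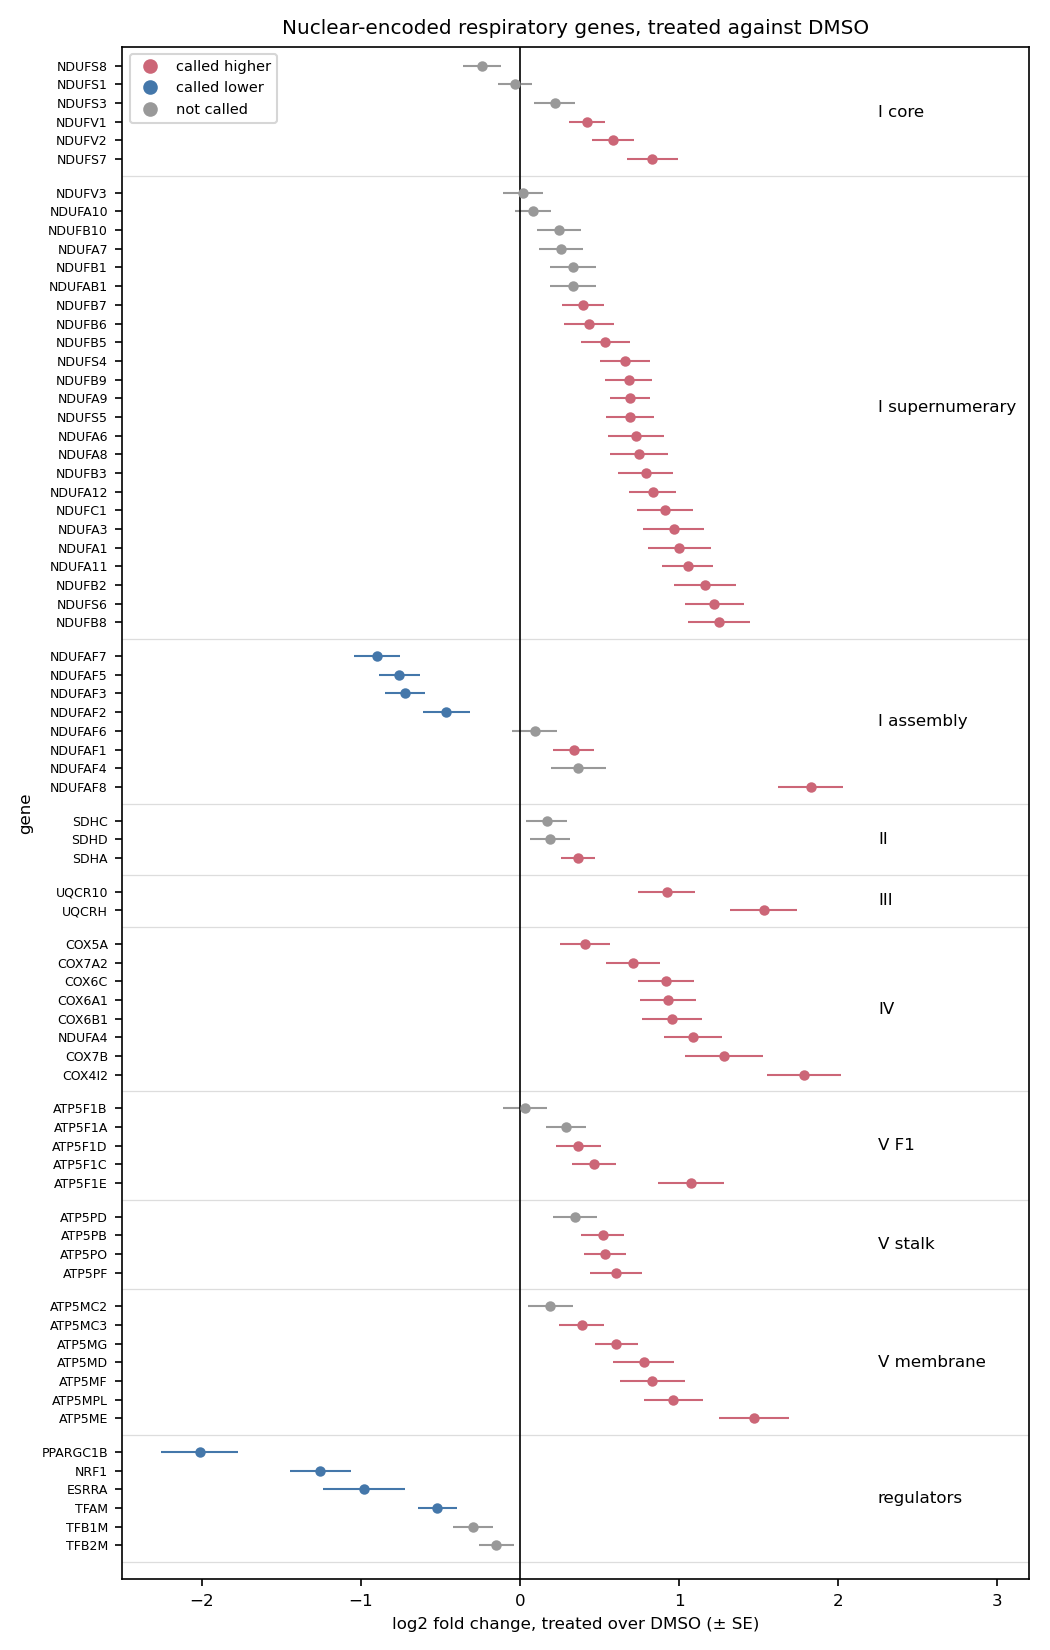
Log2 fold change of treated over DMSO cells for 73 of the 74 tested members, grouped by complex and role, with bars for the SE of edgeR's fit (3 libraries a group) and colours for the call. Complex IV and the small subunits of complexes I, III and V lie to the right, up to 1.79, while the regulators all lie left of 0, down to -2.01.

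The size of the difference varied by complex. Among the members, complex III and complex IV had the highest medians, at 1.23 over 2 small subunits and 0.94 over 8 tested genes. Complex I followed with 0.66 over 31, ATP synthase with 0.53 over 16 and complex II with 0.19 over 3. Subunits recognised only by description are outside these medians, and the order rests on the members alone. Of those, cytochrome c1 of complex III was not called, at -0.17, and SDHB of complex II was called higher, at 0.74. The medians with library totals alone were 0.83, 0.55, 0.28, 0.16 and -0.17 in the same order, so among these medians only that of complex II changed sign. Medians of parts of complex I and of ATP synthase that also changed sign are given below. Relative to library totals, the members together held 2.07%, 2.38% and 2.51% of all counts in the DMSO libraries and 2.57%, 2.88% and 2.72% in the treated libraries. The treated libraries were thus all above the DMSO libraries, by a margin that was small between DMSO replicate 3 and treated replicate 1.

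**Figure D2:**
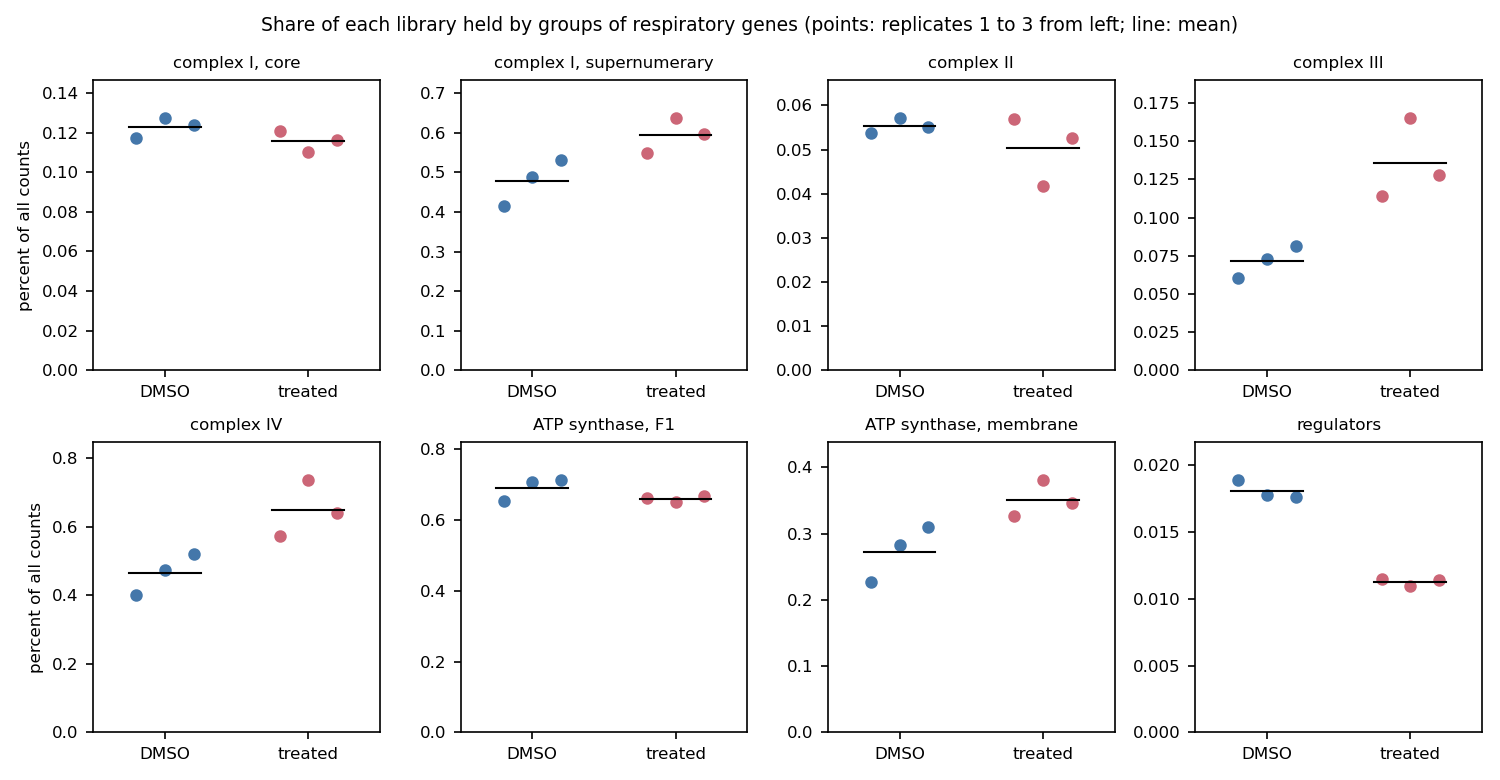
Percent of all counts of a library held by 8 groups of members, with a point for each library and a line at the mean of 3. Complex III, complex IV, the supernumerary subunits of complex I and the membrane part of ATP synthase lie higher in all treated libraries. Complex III here holds the reads of UQCRH and UQCR10 only, without the abundant model described as cytochrome c1. Complex II is drawn without the model described as SDHB. The nuclear complex I core, complex II and the ATP synthase F1 head overlap, and the regulators lie lower.

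Complex I is built from conserved core subunits, which carry the flavin, the iron-sulfur clusters and the quinone site, and from many supernumerary subunits around them that serve its assembly and stability. Of the 24 supernumerary subunits tested, 18 were called higher and 0 lower, beside 25.5% and 26.8% of all models. The median log2 fold change was 0.69, with a range of 0.02 to 1.25. NDUFB8, NDUFS6 and NDUFB2 had the highest fold changes. NDUFB8, an accessory subunit of the membrane arm encoded on chromosome 8p from 645183132 to 645428465 of the AmexG_v6_DD assembly, stood at 191, 231 and 266 CPM in the DMSO libraries and at 405, 727 and 506 CPM in the treated libraries. The groups did not overlap, and treated replicate 2 was the highest. The log2 fold change was 1.25 (SE 0.19, adjusted p = 0.000125 by edgeR). NDUFS6, a zinc-binding subunit of the matrix arm, was measured at 113, 140 and 164 CPM in DMSO and 247, 422 and 303 CPM in treated libraries, a log2 fold change of 1.22 (SE 0.19, adjusted p = 0.000113 by edgeR). Its model shares exonic sequence with that of MRPL36, a mitochondrial ribosomal protein gene, whose log2 fold change was 0.25 (adjusted p = 0.126 by edgeR), and the reads of the overlap could belong to either gene. NDUFB2, another membrane arm subunit, rose from 141, 178 and 199 to 293, 525 and 342 CPM (log2 fold change 1.16, SE 0.20, adjusted p = 0.000251 by edgeR). In all 3 genes the lowest treated library was above the highest DMSO library.

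NDUFAB1, the mitochondrial acyl carrier protein and the complex I gene with the highest mean CPM, was at 434, 549 and 593 CPM in DMSO and 594, 721 and 673 CPM in treated libraries. The groups touched without overlapping, and the difference was not called (log2 fold change 0.33, SE 0.14, adjusted p = 0.0673 by edgeR). It was called without treated replicate 1 (adjusted p = 0.0280), by DESeq2 (adjusted p = 0.0449) and with the length trend removed (0.50, adjusted p = 0.0131). With library totals alone NDUFAB1 was at -0.04 and not called. The other supernumerary subunits not called were NDUFB10, NDUFA7, NDUFB1, NDUFA10 and NDUFV3, with log2 fold changes of 0.24, 0.26, 0.33, 0.08 and 0.02. Those called, besides the 3 described, ranged from 0.40 for NDUFB7 to 1.05 for NDUFA11. NDUFB6 was called (log2 fold change 0.43, adjusted p = 0.0345 by edgeR) although its groups overlapped slightly, at 98.6 CPM in DMSO replicate 3 and 98.1 CPM in treated replicate 1. NDUFB6 did not pass without DMSO replicate 1 (0.25 on the log2 scale, adjusted p = 0.154) or 2 (0.49, adjusted p = 0.0554) and without treated replicate 2 (0.35, adjusted p = 0.0776) or 3 (0.42, adjusted p = 0.0889). That of NDUFB7 was lost without DMSO replicate 1 (0.27, adjusted p = 0.101) or 2 (0.40, adjusted p = 0.0740) or treated replicate 3 (0.37, adjusted p = 0.0761). With the length trend over all models removed, neither was called, at 0.20 for NDUFB6 and 0.16 for NDUFB7 (adjusted p = 0.182 and 0.226), nor with library totals alone, at 0.06 and 0.03 (adjusted p = 0.760 and 0.862). NDUFB1 was called without DMSO replicate 3 (0.46, adjusted p = 0.0279) or treated replicate 1 (0.42, adjusted p = 0.0256), and NDUFB10 without treated replicate 1 (0.34, adjusted p = 0.0423). With the length trend removed NDUFB1 was also called (0.38, adjusted p = 0.0286), and with library totals alone it was at -0.05 and not called. NDUFA2 had 0 to 7 counts a library and was not tested.

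Of the core subunits of complex I encoded in the nucleus, 3 of 7 were called higher, beside 25.5% of all models. Their median was 0.22 on the log2 scale. Core subunits encoded in the mitochondrial genome are not members and are outside all core values here. With library totals alone the core median was -0.14, the value of NDUFS3. NDUFS7, which lies at the quinone site, stood at 197, 218 and 230 CPM in DMSO and 308, 489 and 350 CPM in treated libraries, a log2 fold change of 0.83 (SE 0.16, adjusted p = 0.000725 by edgeR). NDUFV1, which holds the flavin and binds NADH, and NDUFV2, its iron-sulfur partner, rose by smaller amounts. NDUFV1 was at 198, 213 and 194 CPM in DMSO and 268, 287 and 253 CPM in treated libraries, a log2 fold change of 0.42 (adjusted p = 0.00726 by edgeR). NDUFV2 was at 71.9, 89.1 and 98.7 CPM against 127, 122 and 140 CPM, a log2 fold change of 0.58 (adjusted p = 0.00196 by edgeR). For these 3 genes the groups did not overlap, but with library totals alone the calls of NDUFV1 (log2 fold change 0.04) and NDUFV2 (0.22) were lost.

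NDUFS1, NDUFS3 and NDUFS8 were not called. NDUFS1, the largest iron-sulfur subunit, was at 154, 160 and 151 CPM in DMSO and 158, 151 and 147 CPM in treated libraries. These ranges coincide almost fully (log2 fold change -0.03, SE 0.11, adjusted p = 0.835 by edgeR). NDUFS8, an iron-sulfur subunit, was at 167, 198 and 207 CPM in DMSO and 167, 153 and 165 CPM in treated libraries (log2 fold change -0.24, SE 0.12, adjusted p = 0.110 by edgeR). The NDUFS8 groups did not overlap but came within 1 CPM of each other, and without DMSO replicate 1 NDUFS8 was called lower at -0.33 (adjusted p = 0.0378). NDUFS3, which joins the core of the matrix arm, was at 67.0, 83.1 and 83.6 CPM in DMSO and 93.9, 79.0 and 98.7 CPM in treated libraries (log2 fold change 0.22, adjusted p = 0.168 by edgeR). Treated replicate 2 was its lowest treated library, and without it the gene was called higher at 0.32 (adjusted p = 0.0276). The NDUFS3 model overlaps exons of KBTBD4, which had a log2 fold change of -0.19.

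When libraries were scaled by their totals alone, NDUFS1 and NDUFS8 were called lower and NDUFS7 higher, while 12 supernumerary subunits were called higher and 1, NDUFA10, lower. Of all models, 13.3% were called higher and 40.3% lower with that scaling. A ratio of counts within a library does not depend on scaling. Summed counts of the supernumerary subunits were 3.53, 3.84 and 4.30 times those of the nuclear core in the DMSO libraries and 4.54, 5.79 and 5.14 times in the treated libraries. All treated ratios were above all DMSO ratios, an order that no scaling of the libraries can change. The margin between DMSO replicate 3 and treated replicate 1 was small. Over the 6 libraries the ratio rose in the order in which the TMM factors fell, from 1.18 in DMSO replicate 1 to 0.780 in treated replicate 2. The part of RNA composition in this ratio was not tested. The ratio was not planned in advance and holds for the nuclear core only. With counts of the core genes of the mitochondrial genome added to the core, the groups would overlap. Nuclear complex I core counts made up 0.117%, 0.128% and 0.124% of DMSO libraries and 0.121%, 0.110% and 0.116% of treated libraries, which overlap.

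The NDUFAF assembly factors help to build complex I without remaining in it. Of these, 2 of 8 were called higher and 4 lower, beside 25.5% and 26.8% of all models, and the median was -0.18 on the log2 scale. NDUFAF8, on chromosome 3q from 1249492083 to 1249572778, had the highest fitted fold change of all members, close to that of COX4I2. It stood at 25.8, 33.2 and 40.7 CPM in DMSO and 88.2, 157 and 108 CPM in treated libraries. Its groups were far apart, with a log2 fold change of 1.83 (SE 0.20, adjusted p = 7.1e-06 by edgeR), and in mammals its product stabilises NDUFAF5. NDUFAF5 itself, an arginine hydroxylase acting on NDUFS7, fell from 18.8, 20.3 and 19.3 to 11.3, 10.5 and 12.5 CPM (log2 fold change -0.76, SE 0.13, adjusted p = 0.00027 by edgeR). NDUFAF7, a mitochondrial methyltransferase, fell from 12.5, 13.2 and 13.3 to 7.21, 6.05 and 7.55 CPM (log2 fold change -0.90, SE 0.15, adjusted p = 0.000184 by edgeR). Its model overlaps exons of BRIX1, a ribosome assembly gene with a log2 fold change of -0.09. NDUFAF3, an early assembly factor, fell from 42.7, 47.3 and 50.2 to 30.7, 24.1 and 29.8 CPM (log2 fold change -0.73, adjusted p = 0.000332 by edgeR).

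The groups of NDUFAF3, NDUFAF5, NDUFAF7 and NDUFAF8 did not overlap. NDUFAF2, a late assembly factor, was lower at -0.46 (adjusted p = 0.0184 by edgeR), and this did not pass when DMSO replicate 2, DMSO replicate 3 or treated replicate 1 was left out (log2 fold changes -0.47, -0.39 and -0.39, adjusted p = 0.0580, 0.0897 and 0.0561). Its model is a single exon on an unplaced scaffold, and whether it measures the whole gene was not tested. NDUFAF1, part of the intermediate assembly complex, was higher at 0.34 (adjusted p = 0.0398 by edgeR), a call lost without DMSO replicate 1 or 2 or without treated replicate 2 or 3 (0.26, 0.33, 0.26 and 0.34, adjusted p = 0.150, 0.124, 0.0729 and 0.0964). It was also lost with the length trend removed (0.22, adjusted p = 0.106), without a filter on low counts (0.29, adjusted p = 0.103) and with library totals alone (-0.04). NDUFAF4 and NDUFAF6 were not called, at 0.37 and 0.09. NDUFAF4 was called without treated replicate 1, at 0.52 (adjusted p = 0.0145).

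Complex II, succinate dehydrogenase, is also an enzyme of the citric acid cycle and has no subunit encoded in the mitochondrial genome. Of its 3 genes 1 was called higher and 0 lower, beside 25.5% and 26.8% of all models. SDHA, the flavoprotein that oxidises succinate, was at 132, 132 and 125 CPM in DMSO and 165, 172 and 164 CPM in treated libraries. These groups did not overlap, and the log2 fold change was 0.36 (SE 0.11, adjusted p = 0.0112 by edgeR). The call was lost without DMSO replicate 2 (0.37, adjusted p = 0.0573) or 3 (0.33, adjusted p = 0.0612), and with library totals alone the log2 fold change was -0.01. The SDHA model overlaps exons of CCDC127, which had a log2 fold change of 0.27 (adjusted p = 0.0489 by edgeR). SDHC and SDHD, the membrane anchors, were not called. SDHC was at 120, 129 and 118 CPM in DMSO and 156, 114 and 142 CPM in treated libraries (log2 fold change 0.17, adjusted p = 0.291 by edgeR), and without treated replicate 2, its lowest library, it was called higher at 0.29 (adjusted p = 0.0185). SDHD was at 202, 244 and 257 CPM in DMSO and 273, 251 and 276 CPM in treated libraries (log2 fold change 0.19, adjusted p = 0.226 by edgeR), with overlapping groups. SDHC and SDHD had log2 fold changes of -0.19 and -0.17 with library totals alone. Without the model described as SDHB, the complex II members held 0.0536%, 0.0572% and 0.0551% of all counts in the DMSO group, beside 0.0569%, 0.0418% and 0.0526% in the treated group.

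Complex III was represented by 2 small subunits with reads. UQCRH, the acidic hinge protein that aids the docking of cytochrome c, lies on chromosome 1q from 1351687433 to 1351725602 and stood at 315, 377 and 445 CPM in DMSO and 815, 1520 and 955 CPM in treated libraries. Every treated library was well above every DMSO library, with treated replicate 2 the highest, and the log2 fold change was 1.53 (SE 0.21, adjusted p = 4.64e-05 by edgeR). UQCR10, a small transmembrane subunit, was at 198, 266 and 293 CPM in DMSO and 377, 602 and 455 CPM in treated libraries, a log2 fold change of 0.92 (SE 0.18, adjusted p = 0.000818 by edgeR). The UQCRC1 symbol matched a short model of 266 bp with 0 counts in all libraries, which is no measure of that core protein. The symbols CYC1, CYCS and UQCRFS1 were not matched by the rule. Counts of UQCRH were 1.56, 1.54 and 1.73 times those of SDHD in the DMSO libraries and 2.98, 6.06 and 3.46 times in the treated libraries, a pair chosen after the values were seen.

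All 8 tested members of complex IV, cytochrome c oxidase, were called higher, beside 25.5% of all models, with log2 fold changes from 0.41 to 1.79. The catalytic subunits of this enzyme are encoded in the mitochondrial genome, so the nuclear members surround and regulate them. Summed counts of the complex IV members were 7.46, 8.30 and 9.45 times those of complex II in DMSO and 10.1, 17.6 and 12.2 times in treated libraries, without overlap. These sums leave out the models recognised only by description, among them SDHB of complex II, called higher at 0.74, and several of complex IV. This ratio, too, rose in the order in which the TMM factors fell. It was not planned in advance. It sets a complex with a high median over the complex with the lowest, so it repeats a difference that the medians already showed. Of the 8 genes, 6 were called higher with library totals alone, beside 13.3% of all models. COX7B, a small transmembrane subunit encoded on chromosome 5p from 148613539 to 148632273, was at 159, 210 and 250 CPM in DMSO and 335, 747 and 422 CPM in treated libraries. Its groups did not overlap, and treated replicate 2 was far above the other treated libraries. The log2 fold change was 1.28 (SE 0.25, adjusted p = 0.000695 by edgeR) and 0.89 without that library. NDUFA4 was at 500, 644 and 735 CPM in DMSO and 1057, 1660 and 1276 CPM in treated libraries, a log2 fold change of 1.09 (SE 0.18, adjusted p = 0.000256 by edgeR).

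COX6A1, a regulatory subunit with the highest mean CPM of the complex IV members, rose from 679, 853 and 939 to 1287, 1945 and 1474 CPM, a log2 fold change of 0.93 (SE 0.17, adjusted p = 0.00058 by edgeR). COX6B1, which helps to hold the dimer together, COX6C and COX7A2 had log2 fold changes of 0.95, 0.92 and 0.71 and groups without overlap. COX5A, a subunit of the matrix side, was at 717, 785 and 847 CPM in DMSO and 865, 1284 and 968 CPM in treated libraries. Its call (log2 fold change 0.41, adjusted p = 0.0428 by edgeR) was lost without DMSO replicate 1, 2 or 3 (0.34, 0.40 and 0.46, adjusted p = 0.141, 0.128 and 0.0573) and without treated replicate 2 or 3 (0.24 and 0.46, adjusted p = 0.0959 and 0.0695), and the value was 0.02 with library totals alone.

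COX4I2 is the isoform of subunit 4 that mammals express mainly in lung and under low oxygen. Its model on chromosome 3p from 289668627 to 290417950 held few reads, at 1.28, 1.43 and 1.17 CPM in DMSO and 3.92, 5.78 and 3.87 CPM in treated libraries. No treated library came near the DMSO range, and the log2 fold change was 1.79 (SE 0.23, adjusted p = 2.75e-05 by edgeR). The symbol of the usual isoform, COX4I1, was not matched by the rule, but a model whose description names it was at 515, 601 and 688 CPM in DMSO and 1044, 1953 and 1232 CPM in treated libraries. COX4I2 made up 0.219% ± 0.0425 (SD, n = 3) of the counts of both isoforms in DMSO and 0.327% ± 0.0412 in treated libraries, so COX4I1 remained the main isoform in all 6. The treated shares were all above the DMSO shares, and the exact two-sided permutation test gave p = 0.1, the smallest value that 3 against 3 libraries allow. COX7A1, the muscle and heart isoform of subunit 7A in mammals, was likewise found by description. It made up 8.26% ± 0.128 of the counts of COX7A1 and COX7A2 in DMSO and 9.51% ± 0.219 in treated libraries (SD, n = 3, exact permutation p = 0.1). COX6A2, the partner of COX6A1, was also found by description but had too few counts for a share. The remaining isoform pairs of complex IV were not matched with both genes.

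ATP synthase consists of a catalytic F1 head, a peripheral stalk that holds it still, and a membrane part with the rotor ring and small subunits of the dimer. Of its 16 members, 12 were called higher and 0 lower, beside 25.5% and 26.8% of all models, and the median was 0.53 on the log2 scale. The F1 head had 3 of 5 called and a median of 0.37, the stalk 3 of 4 and 0.53, and the membrane part 6 of 7 and 0.78. The F1 median became -0.0075, the value of ATP5F1D, with library totals alone. With library totals alone 4 of the 16 were called higher, beside 13.3% of all models. ATP5ME, the small membrane subunit e of the dimer interface, was at 194, 247 and 294 CPM in DMSO and 500, 952 and 584 CPM in treated libraries. The lowest treated library was above the highest DMSO library, and the log2 fold change was 1.47 (SE 0.22, adjusted p = 9.13e-05 by edgeR). ATP5ME lies on an unplaced scaffold of the assembly. ATP5F1E, the epsilon subunit of the F1 central stalk, rose from 602, 777 and 923 to 1230, 2155 and 1464 CPM, a log2 fold change of 1.08 (SE 0.21, adjusted p = 0.000695 by edgeR). ATP5MPL, a small proteolipid of the membrane part, rose from 184, 239 and 272 to 358, 583 and 416 CPM, a log2 fold change of 0.96 (SE 0.18, adjusted p = 0.000671 by edgeR).

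The catalytic subunits of the head were not called. ATP5F1B, the beta subunit with the active sites, lies on chromosome 3q from 490421205 to 490430891 and was the most highly expressed member per length, at 1648 CPM per kb of exon in DMSO. It was at 3240, 3530 and 3508 CPM in DMSO and 3392, 3637 and 3463 CPM in treated libraries, with overlapping groups and a log2 fold change of 0.03 (SE 0.14, adjusted p = 0.870 by edgeR). ATP5F1A, the alpha subunit, was at 827, 864 and 887 CPM in DMSO and 992, 1115 and 1047 CPM in treated libraries. Its groups did not overlap, but it was not called (log2 fold change 0.29, SE 0.13, adjusted p = 0.0674 by edgeR), and it was called without treated replicate 1 (0.34, adjusted p = 0.0424) and by DESeq2 (0.30, adjusted p = 0.0215). Scaled by totals alone, the log2 fold change was -0.34 for ATP5F1B, called lower, and -0.08 for ATP5F1A. ATP5PD of the stalk and ATP5MC2 of the rotor ring were the other members not called, at 0.35 and 0.19. The ATP5MC2 model is a single exon with a mean of 18.2 CPM in DMSO, against 950 CPM for ATP5MC3. ATP5PF of the stalk, called higher at 0.60, is a single exon on an unplaced scaffold, at 19.5 CPM in DMSO. Whether these 2 models measure the whole genes was not tested. ATP5PD sat at the threshold (adjusted p = 0.0520 by edgeR) and was called without treated replicate 1 (0.39, adjusted p = 0.0377) or DMSO replicate 3 (0.46, adjusted p = 0.0275). ATP5PD was also called by DESeq2 (0.36, adjusted p = 0.0378) and with the length trend removed (0.48, adjusted p = 0.00909). The same held with RLE scaling (0.38, adjusted p = 0.0417) and a filter at a mean of 1 CPM (0.35, adjusted p = 0.0474). With library totals alone ATP5PD was at -0.02 and not called. Among the called members, ATP5F1D and ATP5MC3 lost their calls without DMSO replicate 1 (0.23 and 0.26, adjusted p = 0.177 and 0.139) or 2 (0.39 and 0.41, adjusted p = 0.10 and 0.0992) and without treated replicate 3 (0.36 and 0.37, adjusted p = 0.106 and 0.110). The call of ATP5F1D was also lost without treated replicate 2 (0.32, adjusted p = 0.0580) and with the length trend removed (0.13, adjusted p = 0.326), and that of ATP5F1C without DMSO replicate 1 (0.35, adjusted p = 0.0528). ATP5F1C, ATP5F1D and ATP5MC3 were at 0.09, -0.01 and 0.02 with library totals alone and were not called there. The inhibitory factor ATP5IF1 was not matched by the rule.

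Scaling-free ratios gave the same order within the enzyme. Summed counts of the nuclear members of the membrane part were 0.348, 0.400 and 0.434 times those of the F1 head in DMSO. In treated libraries they were 0.493, 0.585 and 0.521 times, so the groups did not overlap. As for complex I, the ratio rose in the order in which the TMM factors fell, and it was not planned in advance. The share of all counts held by the F1 head was 0.653%, 0.706% and 0.712% in DMSO and 0.661%, 0.651% and 0.666% in treated libraries, which overlap. For the membrane part it was 0.227%, 0.282% and 0.309% in DMSO and 0.326%, 0.381% and 0.347% in treated libraries. Counts of ATP5ME were 0.0598, 0.0701 and 0.0837 times those of ATP5F1B in DMSO and 0.147, 0.262 and 0.169 times in treated libraries, a pair also chosen after seeing the values.

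Read per kb of exon, ATP5ME, UQCRH and COX6C, picked by their treated levels, came closer to ATP5F1B in treated cells. ATP5F1B led in both groups, with mean levels of 1648 CPM per kb in DMSO and 1682 CPM per kb in treated cells. ATP5ME was at 528 CPM per kb in DMSO and 1463 CPM per kb in treated cells, and UQCRH at 478 and 1383 CPM per kb. COX6C, the next in treated cells, was at 646 and 1220 CPM per kb. Other abundant subunits rose less, such as ATP5PB at 556 and 797 and ATP5F1D at 481 and 620 CPM per kb. ATP5ME and ATP5F1D thus lay further apart in treated cells. Shorter models tended to have higher fold changes. Across the 60 tested subunits, log2 fold change and log2 exonic length had a Pearson r of -0.31 and a Spearman rho of -0.32. Over all 74 tested members, with regulators and assembly factors, these were -0.53 and -0.48. For log2 mean CPM against log2 fold change they were 0.57 and 0.52 over the 74, and 0.03 and 0.31 over the 60. These are descriptions across genes that share the same 6 libraries. With a smooth length trend removed from all models, 45 members were called higher and 9 lower, and the median log2 fold change of each group of subunits stayed positive. The part of transcript length or level in these results was not tested further.

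**Figure D3:**
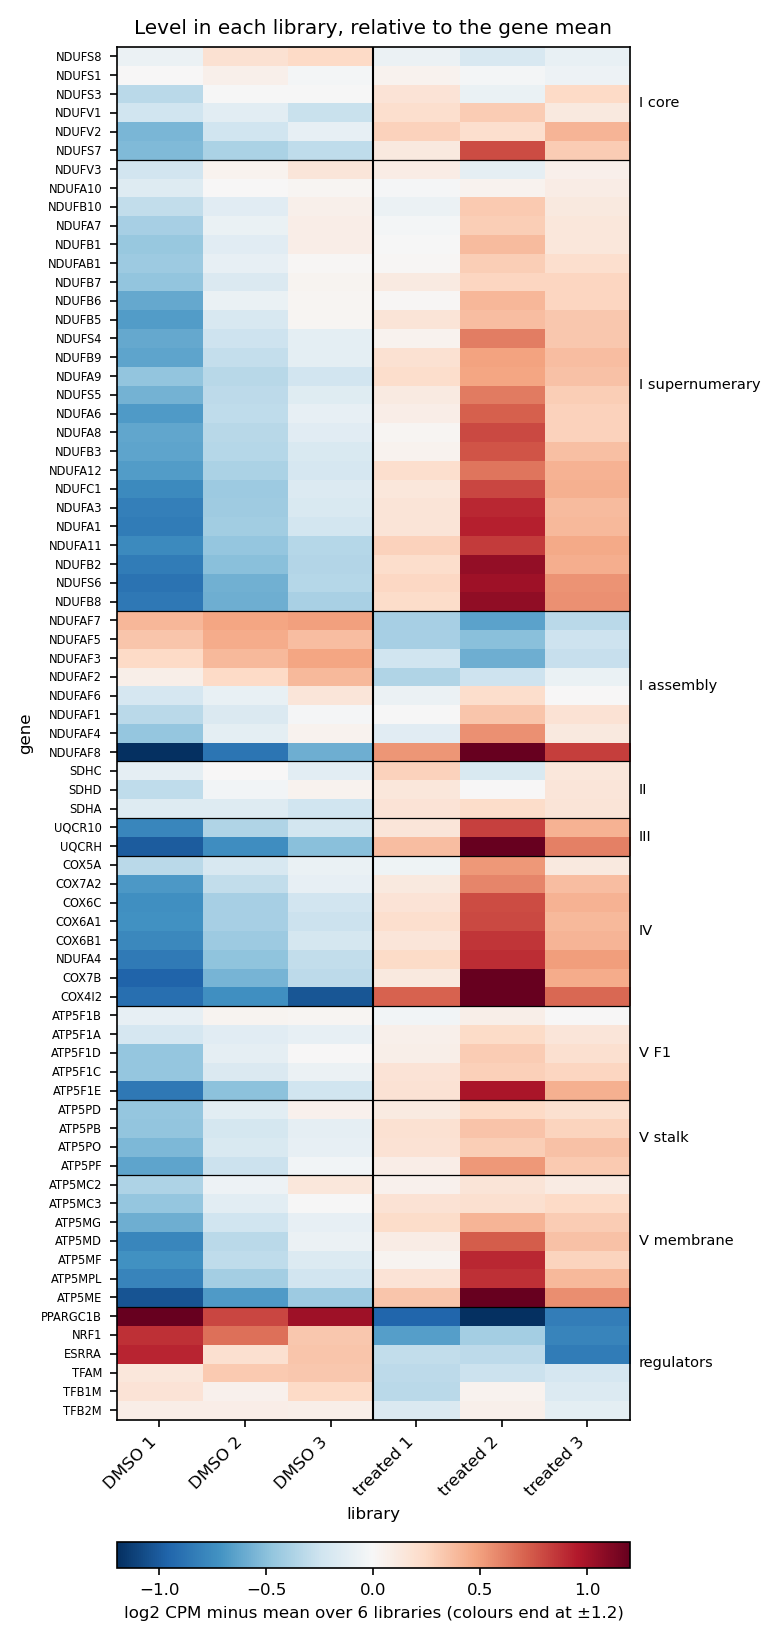
Log2 CPM of 73 of the 74 tested members in each of the 6 libraries, minus the mean of the gene over the 6, with red for higher and blue for lower levels. DMSO replicate 1 is the bluest and treated replicate 2 the reddest column for most subunits, and the 4 regulators called lower are bluer in the treated columns.

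Most subunits also shared an order of the libraries within each group. How many of all models share this order was not counted, so it cannot be read as particular to the subunits. DMSO replicate 1 was the lowest DMSO library for 55 of the 60 subunits and DMSO replicate 3 the highest for 53. Treated replicate 2 was the highest treated library for 49 subunits and treated replicate 1 the lowest for 49. In the median subunit, treated replicate 2 was 0.32 above the mean of the other treated libraries in log2 CPM, with a range of -0.39 for SDHC to 0.99 for COX7B. DMSO replicate 1 was 0.40 below the mean of the other DMSO libraries in the median subunit. These 2 libraries also stood at the ends of their groups in scaling: the TMM factor was 0.780 for treated replicate 2 and 0.958 and 0.905 for the other treated libraries, and it was 1.18 for DMSO replicate 1 and 1.13 and 1.10 for the other DMSO libraries. The mitochondrial genome held 12.1% of the counts of DMSO replicate 1 and 7.86% to 9.15% of the others. The part of RNA composition or library quality in this order was not tested.

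With both libraries set aside, the mean of treated replicates 1 and 3 was above that of DMSO replicates 2 and 3 by 0.39 in log2 CPM in the median subunit, with a range of -0.29 for NDUFS8 to 1.58 for COX4I2. The subunits that were further apart in this difference were also those in which treated replicate 2 stood further above the other treated libraries (Pearson r 0.68 and Spearman rho 0.75 across 60 subunits). Both measures contain treated replicates 1 and 3, with opposite sign, and all subunits share the libraries, so the correlation is a description only. When 1 library at a time was left out of the fit, 39 to 52 members were called higher and 7 to 9 lower.

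**Figure D4:**
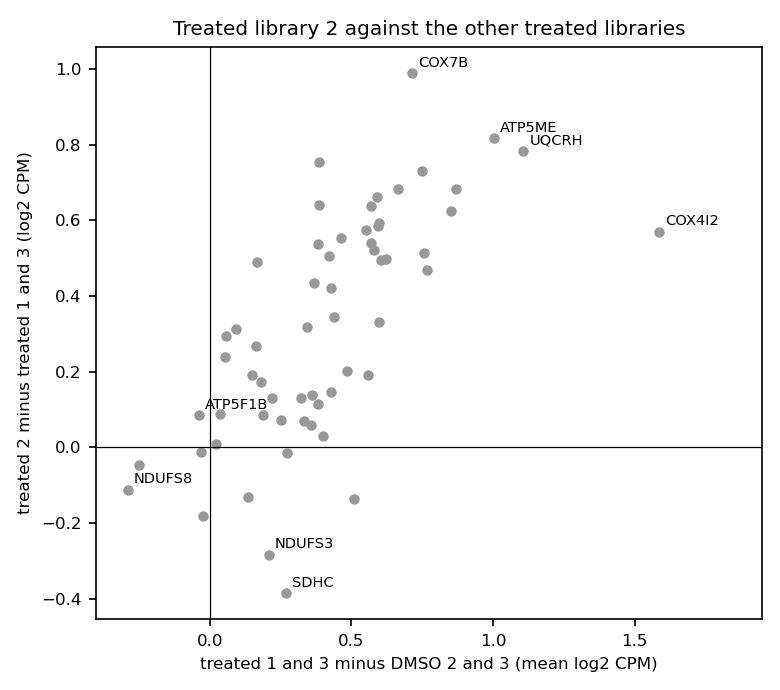
For each of the 60 tested subunits, the log2 CPM of treated replicate 2 minus the mean of treated replicates 1 and 3 (vertical) against the mean of treated replicates 1 and 3 minus that of DMSO replicates 2 and 3 (horizontal). COX7B, ATP5ME and UQCRH are high on both axes, and SDHC and NDUFS3 are the lowest on the vertical axis.

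Of the 6 regulators tested, 4 were called lower and 0 higher, beside 26.8% and 25.5% of all models. Their median log2 fold change was -0.75, and in all 6 every treated library was below every DMSO library (31.4% of all models), although for TFB1M and TFB2M treated replicate 2 lay only just below. PPARGC1B, the coactivator PGC-1 beta, lies on chromosome 3p from 563658152 to 563856978 and was at 3.78, 2.78 and 3.24 CPM in DMSO and 0.828, 0.659 and 0.902 CPM in treated libraries. This was the lowest fold change of all members, with a log2 value of -2.01 (SE 0.24, adjusted p = 1.45e-05 by edgeR). NRF1, a DNA-binding factor of many respiratory gene promoters in mammals, fell from 9.14, 7.86 and 6.25 to 3.16, 3.76 and 2.89 CPM (log2 fold change -1.26, SE 0.19, adjusted p = 0.000116 by edgeR). ESRRA, an orphan nuclear receptor that works with PGC-1 coactivators, fell from 3.98, 2.42 and 2.66 to 1.72, 1.71 and 1.19 CPM (log2 fold change -0.98, SE 0.26, adjusted p = 0.00572 by edgeR). All 3 genes were weakly expressed, and their reads per library were far fewer than those of the subunits.

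TFAM, which packages mitochondrial DNA and starts its transcription, was at 21.4, 24.2 and 24.3 CPM in DMSO and 15.6, 16.3 and 16.8 CPM in treated libraries. The libraries of a group lay close together, and the log2 fold change was -0.52 (SE 0.12, adjusted p = 0.00272 by edgeR). TFB2M, the partner of the mitochondrial RNA polymerase, was at 89.3, 89.6 and 89.0 CPM in DMSO and 75.2, 88.5 and 78.1 CPM in treated libraries, and was not called (log2 fold change -0.15, adjusted p = 0.273 by edgeR). TFB1M, which methylates the small mitochondrial ribosomal RNA, was at 32.3, 29.9 and 34.2 CPM in DMSO and 23.1, 29.7 and 25.8 CPM in treated libraries (log2 fold change -0.30, adjusted p = 0.0625 by edgeR). Without treated replicate 2 it was called lower at -0.39 (adjusted p = 0.0112), and with library totals alone both TFB genes were called lower. PPARGC1A, the coactivator PGC-1 alpha, had 0, 2 and 5 reads in the DMSO group and 8, 0 and 13 in the treated group and was too low to be tested. Per kb of exon the DMSO levels ordered as TFB2M at 25.0 CPM per kb, TFAM at 8.0, TFB1M at 3.06, NRF1 at 1.39, ESRRA at 0.380 and PPARGC1B at 0.340.

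Of 17 tested regulators outside the rule, 9 were called lower, beside 26.8% of all models, 7 were not called and 1 was called higher, with a median of -0.48 on the log2 scale. PPRC1, the third coactivator of the PGC-1 family, fell from 18.9, 18.6 and 15.5 to 3.76, 3.14 and 4.90 CPM (log2 fold change -2.16, SE 0.18, adjusted p = 4.65e-07 by edgeR). HCFC1, a host cell factor that binds PGC-1 coactivators, fell by 1.43 (adjusted p = 2.33e-05 by edgeR). HIF1A, the oxygen-regulated factor, fell by 0.58 (adjusted p = 0.0113 by edgeR). PPARD, a fatty acid receptor, was the gene called higher, at 0.36 (adjusted p = 0.0215 by edgeR).

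Of the 21 tested genes that keep and express the mitochondrial DNA, 7 were called lower (33.3%, near the 26.8% of all models) and 3 higher (14.3%, against 25.5%), with a median of -0.17. TWNK, the mitochondrial helicase, was at 4.13, 4.75 and 4.25 CPM in DMSO and 0.918, 0.776 and 1.34 CPM in treated libraries (log2 fold change -2.09, adjusted p = 8.4e-06 by edgeR). FASTKD1, an RNA-binding protein of mitochondria, fell by 1.90 (adjusted p = 1.76e-06 by edgeR). MGME1, an exonuclease, and TRMT10C, a part of mitochondrial RNase P, rose by 0.92 and 0.61 (edgeR adjusted p = 0.000229 and 0.00273). POLRMT, the mitochondrial RNA polymerase, was not called, at -0.59 (adjusted p = 0.0533 by edgeR). Of the 13 protein-coding genes of the mitochondrial genome, 4 were called higher (30.8%, near the 25.5% of all models) and 0 lower, led by ND3 at 1.88 and ND6 at 0.93, with a median of 0.29. This median was smaller than the shift of -0.37 over all models with library totals alone. The groups overlapped in 10 of the 13, the called ND4 among them. The mitochondrial genome held 7.90% to 12.1% of counts in DMSO and 7.86% to 9.15% in treated libraries, which overlap.

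Of the 20 tested assembly factors other than the NDUFAF genes, 5 were called higher and 5 lower, with a median of 0.06. These shares were near the 25.5% and 26.8% of all models. HIGD2A, an assembly factor of complex IV and supercomplexes, had the highest fold change. It stood at 161, 196 and 235 CPM in DMSO and 463, 755 and 533 CPM in treated libraries, without overlap (log2 fold change 1.57, SE 0.19, adjusted p = 1.32e-05 by edgeR). UQCC3, of complex III, rose by 0.69 (adjusted p = 0.000414 by edgeR). ATPAF2 and ATPAF1, the chaperones of the F1 alpha and beta subunits, fell by 0.75 and 0.62 (edgeR adjusted p = 0.000101 and 0.013). SCO2, SURF1 and COX7A2L were not matched, and SCO1 had too few reads to be tested.

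Of the 21 tested enzymes that feed electrons to ubiquinone or make it, 7 were called higher (33.3%) and 5 lower (23.8%), near the 25.5% and 26.8% of all models, with a median of 0.09. GPD2, the mitochondrial glycerol phosphate dehydrogenase, rose by 0.94 and COQ8B, of ubiquinone synthesis, by 0.93 (edgeR adjusted p = 0.000544 and 0.000231). COQ5, a methyltransferase of ubiquinone synthesis, fell by 1.04 and ETFDH, which takes electrons from fatty acid oxidation, by 0.60 (edgeR adjusted p = 5.78e-06 and 0.00161). The electron carriers ETFA and ETFB, of the same route, rose by 0.77 and 0.86 (edgeR adjusted p = 0.0007 and 0.000122).

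Several subunits carried a locus symbol and were recognised only by the description beside it, so they stand outside all counts above. These 9 rows were chosen after the data had been seen, and 8 of them could be tested. The model described as COX4 isoform 1 had a log2 fold change of 1.23, that of NDUFB4 1.08, NDUFB11 1.03, COX7A1 0.93, COX8B 0.75, SDHB 0.74 and COX5B 0.54, and these 7 were called higher (adjusted p = 0.0102 by edgeR or lower). SDHB, the iron-sulfur subunit of complex II, was at 214, 232 and 241 CPM in DMSO and 337, 451 and 359 CPM in treated libraries, a larger log2 fold change than those of SDHA, SDHC and SDHD. The model described as cytochrome c1, the electron-carrying subunit of complex III, was at 770, 906 and 966 CPM in DMSO and 747, 807 and 788 CPM in treated libraries. Its groups overlapped, and it was not called (log2 fold change -0.17, SE 0.13, adjusted p = 0.293 by edgeR). COX6A2 had 0 counts in the DMSO libraries and 6, 1 and 3 in the treated libraries, within a few counts of the limit of detection.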

How the data were processed

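Polyadenylated RNA of 6 samples of AL1 cells was converted to cDNA by a modified Smart-seq2 procedure from 1000 ng of total RNA and sequenced in paired-end reads of 100 bp, per the labels' protocols. The authors deposited a table of raw read counts, as whole numbers, with a row for each gene model. Per the submitters' processing notes, the tools were bcl2fastq 2.20.0, STAR 2.7.7a and featureCounts 2.0.1. Gene models are those of the AmexG_v6_DD assembly, per the deposited table. Whether counting used strand, and how reads with several matches were treated, is not given in the sources used, so overlapping models share reads to an unknown extent. Exons of 15 members overlap another model. For 5 members an overlapping model had a mean count of at least 10 and at least 10% of the member's own. The length of the overlaps was not measured.

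The test was edgeR 4.0.16 in R 4.3.3 (filterByExpr, TMM, robust quasi-likelihood F-test, two-sided, treated against DMSO, 3 libraries each). P-values were adjusted over all 17424 models tested. DESeq2 1.42.0 was an alternative, with other scalings, other filters, a length correction, summed models and each library left out in turn. The edgeR fit was also run on simulated data in which most models were unchanged, which could not test the choice of scaling. CPM are TMM-scaled and lengths are summed exons. The 92 spike-in rows, at 0 counts, were left out. Members and lists were chosen with earlier results of these data known. Genes named were, per complex, up to 3 called members at each end of the fold changes and the member with the highest mean CPM, with the core subunits of complex I, all of complex II and all regulators. For other lists up to 2 called genes at each end were named, with SCO2, SURF1, HIF1A, POLRMT and PPRC1. Further names were chosen after their values were seen, and the ratios of summed counts were not planned in advance. Limits based on a count of 3 cover counting error only. Promoter motifs and protein sequences were not analysed here. The values of 1 core subunit are not reported here, although it stays in the counts and sums.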

Additional observations from a re-analysis of the deposited data

How the results depend on the processing

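Scaling was the choice with the most effect. With library totals alone, 2314 models were higher and 7029 lower, 26 members were higher and 15 lower, and the median log2 fold change became 0.12 for the members, 0.28 for complex I, -0.56 for its assembly factors, -0.17 for complex II, 0.83 for complex III, 0.55 for complex IV, 0.16 for ATP synthase and -1.12 for the regulators. With the length trend removed the assembly factor median was -0.34. Of the 46 members called higher, 26 were called in all 13 alternatives and 38 in all but library totals alone. Of the 8 called lower, 7 were called in all 13. The other alternatives (DESeq2, RLE scaling, other filters, length correction and summed models) called 45 to 49 members higher and 8 or 9 lower. Leaving out 1 library at a time gave 3706 to 4503 models higher and 3884 to 4731 lower, and 39 to 52 members higher and 7 to 9 lower. Over these fits the medians ran from 0.39 to 0.57 for the members, 0.52 to 0.76 for complex I, -0.27 to -0.10 for its assembly factors, 0.15 to 0.29 for complex II, 0.98 to 1.39 for complex III, 0.75 to 1.09 for complex IV, 0.41 to 0.60 for ATP synthase and -0.81 to -0.66 for the regulators. In every fit, the main one included, the spread of a gene was shared between the groups, also where 2 libraries remained in a group. The sign of 19 members changed in some alternative. With library totals alone, log2 fold changes became -0.085 for ATP5F1A, -0.34 for ATP5F1B, -0.0075 for ATP5F1D, -0.18 for ATP5MC2, -0.024 for ATP5PD, -0.29 for NDUFA10, -0.12 for NDUFA7, -0.040 for NDUFAB1, -0.040 for NDUFAF1, -0.021 for NDUFAF4, -0.28 for NDUFAF6, -0.046 for NDUFB1, -0.14 for NDUFB10, -0.14 for NDUFS3, -0.34 for NDUFV3, -0.012 for SDHA, -0.19 for SDHC and -0.17 for SDHD. With the length trend removed they became -0.043 for ATP5F1B, -0.011 for ATP5MC2, -0.16 for NDUFA10, -0.11 for NDUFAF6, -0.019 for NDUFV3 and 0.13 for NDUFS1, which was 0.0056 with RLE scaling. Without a filter ATP5F1B was -0.015 and NDUFV3 -0.023. With 1 library left out, ATP5F1B ran from -0.016 (without DMSO replicate 1) to 0.058 and NDUFV3 from -0.089 (without DMSO replicate 1) to 0.095, with -0.0086 without treated replicate 1 and -0.0035 without treated replicate 3. The cause of these changes was not tested. Isoform shares per length kept their direction. No paired analysis was possible because the labels number no replicates, and the numbers used here only name libraries. Regulators near 1 CPM rested on few reads, which limits their precision.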
